A study of Mus musculus with 12 samples.

Results

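A group of 8 genes outside the pluripotency program stood among the largest differences between mouse fibroblasts with and without SKO on these arrays: Dpp4, Aspa, Aldh3a1, Trh, Gna14, Fetub, Ceacam1 and Enpp3. They were selected on those differences, so the SKO differences below are a description of the selection and carry no test. They are 8 of 19938 measured genes, and each was represented by 1 probe set annotated to that gene alone. The RNA came from embryonic fibroblasts of OG2 mice, which carry a GFP transgene under the Oct4 promoter, crossed to 129/sv, and the 12 whole-transcript arrays had 1 array per condition. The conditions crossed SKO (with or without), retrovirus (microRNA cluster B, microRNA cluster C or a blank control) and day (4 or 8, counted from the first infection).

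The 6 arrays with SKO are from fibroblasts undergoing reprogramming. The letters are read here as Sox2, Klf4 and Oct4 (encoded by Pou5f1), which the labels do not spell out. The 6 arrays without SKO received cluster B, cluster C or blank virus alone. The microRNAs in each cluster are not listed in the labels. Cells of every array had been infected, kept in embryonic stem cell medium and cleared of feeder cells before RNA extraction. All titles without SKO also carry the tag Group2, and none with SKO does, so SKO and the group cannot be told apart. A description shared by all 12 arrays names a pre-iPSC sample at another day and was not used. Pou5f1, one of the delivered factors, was the gene with the largest difference at day 8, 7.86 log2 units higher with SKO. That fits the reading of the letters for Oct4 alone. The mean level of Pou5f1, Sox2, Klf4 and Myc was 8.51 to 8.96 with SKO and 5.51 to 5.94 without. Pou5f1 makes the largest part of that difference, and Sox2 and Klf4 are not given singly here.

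Reprogramming factors bind DNA and switch genes on or off, and fibroblasts on the way to pluripotency can lose fibroblast genes and gain epithelial genes before the pluripotency network is active. The 8 genes are known from other tissues and from no single pathway. Dpp4 (CD26) is a surface peptidase that removes a dipeptide from incretins and chemokines, and Enpp3 (CD203c) is a surface ectoenzyme that hydrolyses extracellular nucleotides, known as a marker of basophils. Aspa encodes aspartoacylase, which splits N-acetylaspartate in oligodendrocytes and kidney, and Aldh3a1 encodes an aldehyde dehydrogenase abundant in corneal epithelium. Trh encodes the precursor of thyrotropin-releasing hormone, and Fetub encodes the liver plasma protein fetuin-B, an inhibitor of the protease ovastacin. Gna14 encodes a G protein alpha subunit of the Gq class, which couples receptors to phospholipase C-beta. Ceacam1 encodes a cell adhesion receptor with inhibitory signalling motifs, found on epithelial and immune cells.

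The sequence around the annotated start sites was read from RefSeq on the GRCm38.p6 build, which held 8 start sites for 7 of the 8 genes and 2 of them for Fetub. Each window has 300 bases, 250 before the start site and 50 after it. Aldh3a1 had no window. The 4 shown span the range of timing described further on among the 7 genes with a window. Gna14 and Fetub are also the genes whose windows hold a match to an octamer core and a TATA box near the start site. Dpp4 has one of the largest SKO differences, and Enpp3 is the gene of the 8 with nearly no difference at day 4. Capitals mark matches to any motif searched, on either strand. Coordinates are chr2:62412182-62412481 on the minus strand for Dpp4, chr19:16435417-16435716 on the plus strand for Gna14, chr16:22918132-22918431 on the plus strand for the first Fetub start site and chr10:24836146-24836445 on the minus strand for Enpp3.
Dpp4: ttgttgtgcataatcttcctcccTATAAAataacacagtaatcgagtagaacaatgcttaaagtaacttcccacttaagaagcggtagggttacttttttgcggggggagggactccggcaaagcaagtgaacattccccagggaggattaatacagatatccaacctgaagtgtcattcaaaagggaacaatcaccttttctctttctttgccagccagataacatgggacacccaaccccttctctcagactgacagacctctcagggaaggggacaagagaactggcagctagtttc
Gna14: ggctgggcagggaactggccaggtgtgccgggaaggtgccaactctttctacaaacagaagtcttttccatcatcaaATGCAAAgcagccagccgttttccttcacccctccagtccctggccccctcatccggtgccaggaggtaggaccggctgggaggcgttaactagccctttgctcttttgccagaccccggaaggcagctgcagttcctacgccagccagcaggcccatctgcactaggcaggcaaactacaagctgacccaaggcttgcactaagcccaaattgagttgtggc
Fetub: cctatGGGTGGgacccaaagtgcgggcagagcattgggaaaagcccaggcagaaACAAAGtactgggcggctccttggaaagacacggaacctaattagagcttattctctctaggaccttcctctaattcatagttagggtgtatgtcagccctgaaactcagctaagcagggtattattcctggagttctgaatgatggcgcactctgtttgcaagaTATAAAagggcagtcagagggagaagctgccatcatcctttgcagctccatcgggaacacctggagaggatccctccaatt
Enpp3: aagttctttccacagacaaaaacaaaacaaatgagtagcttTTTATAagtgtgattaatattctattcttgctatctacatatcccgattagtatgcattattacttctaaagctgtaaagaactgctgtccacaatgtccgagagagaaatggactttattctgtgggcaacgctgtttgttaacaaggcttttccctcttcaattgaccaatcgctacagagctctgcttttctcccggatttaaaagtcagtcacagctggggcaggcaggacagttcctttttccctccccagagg

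Short motifs were searched on both strands: the octamer ATGCAAAT bound by Oct4, the octamer core ATGCAAA, which every octamer contains, the Sox motif ACAAAG, the Klf motif GGGTGG and the TATA box TATAAA. The octamer was in the window of 0 of the 7 genes, against 1.74% of the 32851 mouse promoter windows in the same table. The octamer core was in 1, Gna14, 173 bases before the start site, and in 4.63% of all windows. The Sox motif was in 3 genes (Trh, Fetub and Ceacam1) and in 18.7% of all windows. The Klf motif was in 2 genes (Fetub, at both start sites, and Ceacam1) and in 31.5% of all windows. TATAAA was in 4 genes (Dpp4, Aspa, Fetub and Enpp3) and in 13.6% of all windows, but only in Fetub did it lie near the start site, 31 bases before it. In Dpp4 the match lay 227 bases before the start site and in Enpp3 209 bases. These matches describe the letters of the windows, and no binding was measured.

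With SKO, all 8 genes were higher at day 8, by 3.94 to 5.73 log2 units, or 15.3-fold to 53.2-fold. At day 4, 7 of them were already higher by 2.99 to 5.44 log2 units, and Enpp3 differed by 0.37. In rank among all genes at day 8, Dpp4, Aspa, Aldh3a1, Trh, Gna14, Fetub and Ceacam1 took places 2 to 8, directly below Pou5f1. Enpp3 took place 14. Genes that lay just outside the selection were Fbxo15, a pluripotency marker, at 4.35 log2 units and place 9, and Cth, an enzyme of cysteine synthesis, at 4.08 and place 10. Dppa5a, another pluripotency marker, followed at 4.04, Alg13 at 4.03 and the chloride channel gene Ano1 at 3.98. Crym, directly below Enpp3 at place 15, differed by 3.91. The adjusted p was under 0.05 in limma for 7 of the 8 genes at day 4, where 9.52% of all genes were called higher. For 8 of 8 it was so on day 8, where 13.4% of all genes were. In each of the 8 genes, every SKO array lay above every array without SKO on both days, which held for 15.8% of all genes at day 4 and 20.7% at day 8. These counts follow from the selection and nothing is read from them.

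**Figure D1:**
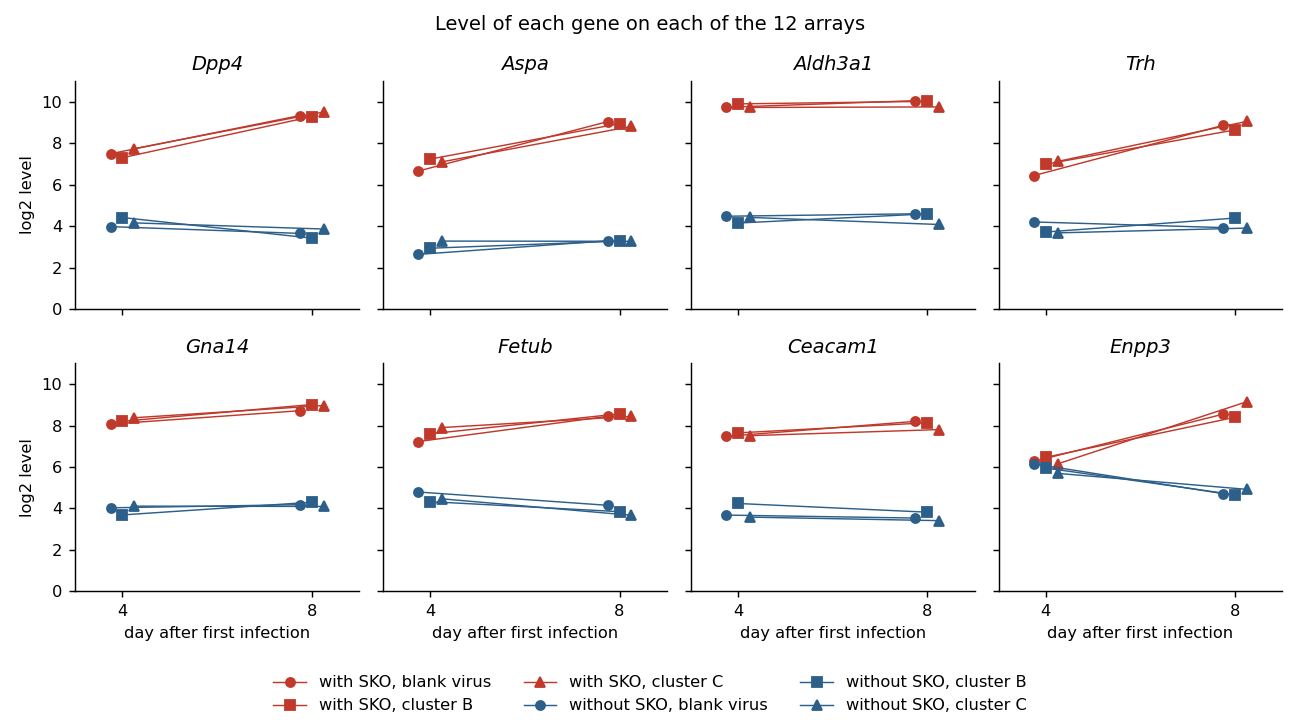
Log2 level of each of the 8 genes (one panel each) on each of the 12 arrays against day after first infection, coloured by SKO and marked by virus. Arrays with SKO lie above those without it in every panel, and only for Enpp3 do they nearly meet, at day 4, where the lowest SKO array has 6.15 and the highest array without SKO has 6.14.

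Among the surface enzymes, Dpp4 with SKO read 7.49 with blank virus, 7.30 with cluster B and 7.74 with cluster C at day 4, and 9.34, 9.28 and 9.50 at day 8, in log2 units. Arrays without SKO read 3.97, 4.41 and 4.15 at day 4, then 3.65, 3.42 and 3.86 at day 8. The 4 sets of arrays did not overlap: levels with SKO were higher at day 8 than at day 4, and those without SKO were lower. The difference with SKO was 3.33 ± 0.14 (SE) log2 units at day 4, or 10.1-fold, and 5.73 ± 0.14 at day 8, or 53.2-fold. At day 8, 2 of the 3 arrays without SKO lay below their array's lower quartile, so the true day 8 difference may be larger and is not ranked against that of Aspa. SEs come from the limma fit over all 12 arrays, where the spread is the amount by which virus effects differ between days.

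Enpp3 followed another course. With SKO it read 6.27, 6.47 and 6.15 (blank, B, C) at day 4, then 8.55, 8.40 and 9.15 at day 8. In the arm without SKO it read 6.14, 5.95 and 5.69 at day 4, then 4.71, 4.66 and 4.92 at day 8. The arms lay side by side at day 4 and far apart at day 8: the gene was higher at day 8 with SKO and lower at day 8 without it. The difference was 0.37 ± 0.20 log2 units at day 4 and 3.94 ± 0.20 at day 8. The day 4 value ranged from 0.13, without the SKO cluster B array of day 4, to 0.67, without the SKO cluster C array of day 4, where limma gave an adjusted p of 0.0462. It was 0.17 without the cluster C array of day 4 that had no SKO.

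Among the cytosolic enzymes, Aspa with SKO read 6.66, 7.23 and 7.10 at day 4, then 9.04, 8.94 and 8.81 at day 8. The other arm read 2.63, 2.93 and 3.28 at day 4, then 3.29, 3.27 and 3.27 at day 8. The 6 values without SKO all lay below their array's lower quartile, so the differences of 4.05 ± 0.17 and 5.65 ± 0.17 log2 units are best read as lower bounds. The gene of this acylase was thus near the floor of the arrays in fibroblasts without SKO.

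Aldh3a1 was the gene of the 8 whose SKO arrays were already at their day 8 level at day 4. With SKO it read 9.73, 9.90 and 9.73 at day 4, then 10.05, 10.02 and 9.75 at day 8, and these ranges overlapped. Without SKO it read 4.47, 4.15 and 4.42 at day 4, then 4.59, 4.59 and 4.08 at day 8. The difference was 5.44 ± 0.15 log2 units at day 4, or 43.4-fold, and 5.52 ± 0.15 at day 8, or 45.9-fold. It had place 3 among all genes at day 4, the highest place of the 8 on that day.

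Among the secreted products, Trh with SKO read 6.44, 6.99 and 7.12 at day 4, then 8.87, 8.64 and 9.05 at day 8. The arrays without SKO read 4.2, 3.71 and 3.67 at day 4, then 3.93, 4.39 and 3.90 at day 8. The days were separate with SKO and overlapped without it. The difference in this hormone precursor gene was 2.99 ± 0.19 log2 units at day 4, or 7.92-fold, and 4.78 ± 0.19 at day 8, or 27.5-fold.

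Fetub with SKO read 7.23, 7.60 and 7.90 at day 4, then 8.44, 8.56 and 8.44 at day 8. Without SKO it read 4.79, 4.32 and 4.46 at day 4, then 4.15, 3.84 and 3.67 at day 8. As in Dpp4, the 4 sets of arrays were separate, with day 8 above day 4 in the SKO arm and below it in the other. The difference was 3.05 ± 0.14 log2 units at day 4, or 8.28-fold, and 4.60 ± 0.14 at day 8, or 24.2-fold.

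The signalling genes had small changes between days. Gna14 with SKO read 8.07, 8.20 and 8.37 at day 4, then 8.71, 9.01 and 8.96 at day 8. Without SKO it read 4.03, 3.68 and 4.11 at day 4, then 4.18, 4.30 and 4.09 at day 8. The SKO arrays were separate by day and the others overlapped. The difference was 4.28 ± 0.13 log2 units at day 4, or 19.4-fold, and 4.71 ± 0.13 at day 8, or 26.1-fold.

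Ceacam1 with SKO read 7.48, 7.64 and 7.51 at day 4, then 8.20, 8.13 and 7.80 at day 8. Without SKO it read 3.68, 4.24 and 3.58 at day 4, then 3.53, 3.82 and 3.41 at day 8. The days were separate with SKO, by a narrow margin, and overlapped without it, where 2 of the 6 values lay below the array's lower quartile, as 2 of 6 did for Dpp4. The difference was 3.71 ± 0.12 log2 units at day 4, or 13.1-fold, and 4.46 ± 0.12 at day 8, or 22.0-fold. Ceacam1 has close relatives in the mouse, and how the probes of this probe set divide among them is not given in the sources used here.

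**Figure D2:**
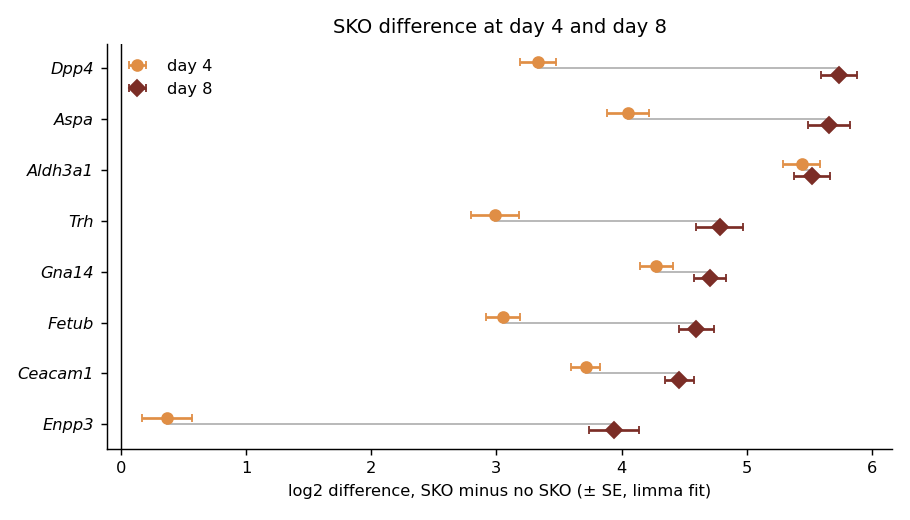
Log2 difference between arrays with and without SKO for each of the 8 genes at day 4 (circles) and day 8 (diamonds), with SE from the limma fit over 12 arrays. The differences at day 8 run from 3.94 in Enpp3 to 5.73 in Dpp4, and the days nearly coincide in Aldh3a1, at 5.44 and 5.52.

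The share of the day 8 log2 difference already present at day 4 varied among the genes. It was 98.5% in Aldh3a1, 90.8% in Gna14 and 83.2% in Ceacam1. It was 71.6% in Aspa, 66.4% in Fetub, 62.4% in Trh and 58.1% in Dpp4. The shares of Aspa, Dpp4 and Ceacam1 divide by differences from levels partly or wholly below the lower quartile of the arrays, so they are approximate and give no order among the genes. Enpp3 stood apart at 9.36%, and its rank among all genes was 2158 at day 4 against 14 at day 8. A lower share does not mean a smaller difference at day 4, where Dpp4 differed by 3.33 log2 units, Fetub by 3.05 and Trh by 2.99.

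Day 8 was compared with day 4 within each arm, where the day 8 arrays also entered the selection, so these values are again a description. With SKO, all 8 genes were higher at day 8 in 3 of 3 pairs of the same virus. The share of all genes with such pairs was not computed, so nothing is read from this direction. Enpp3 was higher by 2.40 ± 0.20 log2 units, with pairs from 1.93 to 3.0, Trh by 2.01 ± 0.19, Aspa by 1.93 ± 0.17 and Dpp4 by 1.87 ± 0.14. The change was 0.91 ± 0.14 in Fetub, 0.68 ± 0.13 in Gna14, 0.50 ± 0.12 in Ceacam1 and 0.16 ± 0.15 in Aldh3a1. The call in Gna14 was lost without any 1 of the 6 SKO arrays (estimates from 0.62 to 0.73), and that in Ceacam1 without either blank or either cluster B array with SKO, or either cluster C array without it (0.39 to 0.51). Changes in all but Aldh3a1 had an adjusted p under 0.05 in limma, 7 of 8, where 5.24% of all genes were called higher. Nothing is read from that count.

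Without SKO, the direction differed among the genes. Enpp3 changed by -1.17 ± 0.20 log2 units from day 4 to day 8, Fetub by -0.64 ± 0.14, Dpp4 by -0.54 ± 0.14 and Ceacam1 by -0.24 ± 0.12, each lower in 3 of 3 pairs. Aspa (0.33), Gna14 (0.25), Trh (0.21) and Aldh3a1 (0.07) were higher in 2 of 3 pairs. Here too the share of all genes with such pairs was not computed, and nothing is read from the pair counts. In limma, 0 of the 8 genes were called higher without SKO, where 4.05% of all genes were and 3 of the 8 had an unadjusted p under 0.05 in either direction. Enpp3 and Fetub, 2 of 8, were called lower, where 4.63% of all genes were, and the count was 0 without either blank array or either cluster B array of that arm and 1 without either cluster C array.

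The change between days with SKO exceeded that without SKO by 3.57 ± 0.28 log2 units in Enpp3, 2.40 ± 0.20 in Dpp4, 1.80 ± 0.27 in Trh, 1.60 ± 0.24 in Aspa and 1.55 ± 0.19 in Fetub. It exceeded it by 0.75 ± 0.16 in Ceacam1, 0.43 ± 0.19 in Gna14 and 0.08 ± 0.21 in Aldh3a1. The first 6 had an adjusted p under 0.05 in limma, where 1.97% of all genes were called higher. The call for Ceacam1 was lost when any 1 of the 12 arrays was left out (estimates from 0.64 to 0.85, adjusted p from 0.067 to 0.164). Without SKO, only Enpp3 and Fetub of these genes had a called change between days, so for the others the day 8 values without SKO are given as levels and not as a fall.

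Over all 12 arrays, after each gene's own mean was subtracted, the root mean square distance between profiles was smallest for Fetub and Ceacam1 (0.38 log2 units), Gna14 and Ceacam1 (0.39) and Dpp4 and Aspa (0.42). It was largest for Enpp3 and Aldh3a1, at 1.92. The gene of the 8 nearest to Enpp3 was Trh, at 1.03. By this measure Enpp3 was the odd one of the 8, as it was by the share present at day 4. Both come from the same values, so the distance adds no independent evidence.

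The clusters were not used to select the genes, so they were tested. None of the 8 genes was called for cluster B or cluster C against blank virus, with or without SKO, at an adjusted p under 0.05 in limma. With SKO, cluster B against blank gave estimates from -0.12 to 0.25 log2 units (adjusted p = 0.9999 for all 8), and 0 of 8 were called, where 0.01% of all genes were. Cluster C against blank gave -0.18 to 0.44 (adjusted p from 0.741 to 0.950), again with 0 of 8 called, where 0.0201% of all genes were. Cluster C against cluster B gave -0.23 to 0.33 (adjusted p from 0.876 to 0.970), with 0 of 8 called and the same 0.0201% of all genes. At an unadjusted p under 0.05 the count of the 8 was 0 in each of these comparisons, against 614, 1359 and 1102 of all genes.

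The highest of these estimates belonged to Trh, 0.44 ± 0.23 log2 units with cluster C (adjusted p = 0.766), and Fetub, 0.34 ± 0.17 (adjusted p = 0.741). Both came mostly from day 4. The Trh level with cluster C stood 0.68 above blank at day 4 and 0.19 above it at day 8, and the Fetub level stood 0.68 above blank at day 4 and 0.00 from it at day 8. Enpp3 had the opposite order, -0.12 at day 4 and 0.60 at day 8. Single pairs have no replicate check. Over the 8 genes, the cluster C minus blank pairs had a median of 0.28 log2 units at day 4 and 0.08 at day 8 with SKO, and since all pairs of a day share the same blank array, the median over genes describes those arrays only. In the fit over both days, the 8 genes had a median of 0.22 with cluster C and 0.11 with cluster B, against -0.01 and -0.00 over all genes.

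Without SKO, cluster B gave estimates from -0.39 to 0.42 log2 units (adjusted p from 0.768 to 0.998) and cluster C from -0.41 to 0.31 (adjusted p = 0.9997 for all 8). In both, 0 of 8 genes and 0% of all genes, 0 of 19938, were called. At an unadjusted p under 0.05 there were 2 of 8 with cluster B, Ceacam1 at 0.42 ± 0.14 and Fetub at -0.39 ± 0.17, and 1 with cluster C, Fetub at -0.41 ± 0.17, against 1169 and 941 of all genes. The cluster estimates of Fetub were positive with SKO and negative without it. Its cluster C effect with SKO exceeded that without SKO by 0.74 ± 0.24 log2 units (adjusted p = 0.824), and its cluster B effect by 0.63 (adjusted p = 0.919). In these comparisons of the effects between arms, 0 of 8 genes and 0 of all genes were called, with 1 of the 8 (Fetub) at an unadjusted p under 0.05 in each, against 1155 and 1036 of all genes.

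**Figure D3:**
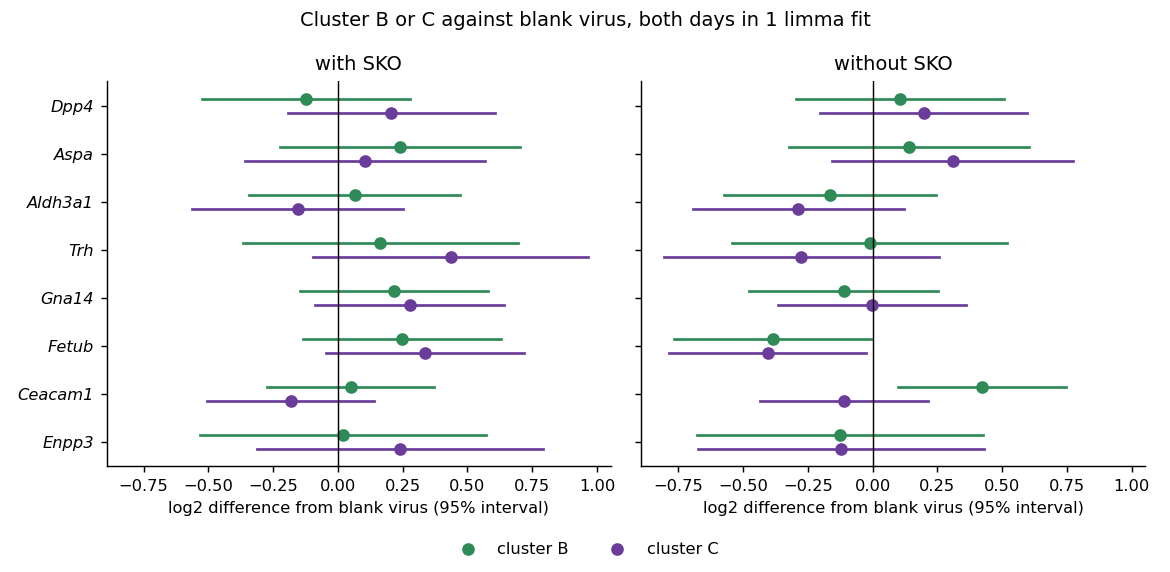
Log2 difference of cluster B or cluster C from blank virus for each of the 8 genes, with 95% intervals from the limma fit, in arrays with SKO (left) and without SKO (right). Estimates lie between -0.41 and 0.44, with no call at an adjusted p under 0.05 in either panel.

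The missing calls do not show that the clusters left these genes at the level of blank virus. With SKO, the 95% intervals of the 8 genes ran from -0.53 to 0.70 log2 units for cluster B and from -0.56 to 0.96 for cluster C, and for cluster C against cluster B from -0.63 to 0.80. Without SKO they ran from -0.77 to 0.75 for cluster B and from -0.80 to 0.77 for cluster C. The day 8 SKO differences of 3.94 to 5.73 log2 units lie outside all of these intervals. The selection had made those differences large, so nothing is read from that. Cluster effects within the bounds of the intervals cannot be told apart from 0 with 1 array per condition. An effect present at 1 day only counts as spread.

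Each gene was then set beside a list of genes of its family or pathway. Over all genes, the median SKO difference was -0.04 at day 4 and -0.07 at day 8, and at day 8 2674 genes were called higher and 2525 lower. The relatives of Dpp4 (8 measured) had a median of 0.14 at day 8, with 3 called higher and 1 lower. Dpp6, a relative without peptidase activity that modulates potassium channels, rose at day 8 by 2.34 ± 0.11 log2 units (adjusted p = 1.33e-06) and by 0.44 ± 0.11 at day 4 (adjusted p = 0.0206). Its levels were 4.02 to 6.02 with SKO and 3.63 to 3.85 without. Dpp10, its partner of the same kind, rose by 1.08 ± 0.15 at day 8 (adjusted p = 0.000742), and Dpp7 rose by 0.50 (adjusted p = 0.0201). Fap, the fibroblast activation protein and the closest relative of Dpp4, fell by 0.98 log2 units at day 8 (SE 0.12, adjusted p = 0.00034) and differed by 0.05 at day 4 (adjusted p = 0.836).

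The list for Aspa (7 measured) had a median of 0.20 at day 8, with 2 higher and 0 lower. Nat8l, which makes the N-acetylaspartate that Aspa splits, rose by 1.26 ± 0.15 log2 units at day 4 (adjusted p = 0.000436) and 0.70 at day 8 (adjusted p = 0.00825). Acy3, the nearest relative of Aspa, fell by 0.43 at day 4 (adjusted p = 0.0257) and rose by 0.35 at day 8 (adjusted p = 0.0439). The enzyme that makes the substrate and the one that splits it were thus both higher with SKO on both days.

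The aldehyde dehydrogenases other than Aldh3a1 (12 measured) had a median of -0.17 at day 8, with 1 higher and 4 lower. Aldh3a2, which lies beside Aldh3a1 in the genome, differed by 0.10 log2 units at day 4 (adjusted p = 0.566) and 0.21 ± 0.10 at day 8 (adjusted p = 0.139), with levels of 6.71 to 6.98 with SKO and 6.58 to 6.91 without. Aldh2, the mitochondrial enzyme of ethanol breakdown, rose by 0.56 at day 8 (adjusted p = 0.00227). Aldh1a7 fell by 1.39 at day 8 (SE 0.10, adjusted p = 1.56e-05), Aldh18a1, an enzyme of proline synthesis, fell by 1.04 (adjusted p = 0.000154), and Aldh7a1, which acts in lysine breakdown, fell by 0.76 (adjusted p = 0.000983). Aldh1a3, a retinoic acid synthesising enzyme, rose by 0.92 at day 4 (adjusted p = 0.000329) and differed by -0.03 at day 8.

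Genes that process or read thyrotropin-releasing hormone (9 measured) had a median of -0.17 at day 8, with 2 higher and 2 lower. Pam, the amidating enzyme of peptide hormones, rose by 1.11 log2 units at day 4 (adjusted p = 0.000106) and 1.26 ± 0.10 at day 8 (adjusted p = 2.86e-05). Qpct, which forms the pyroglutamate end of the hormone, rose by 0.76 at day 8 (adjusted p = 0.00139). Cpe, a carboxypeptidase of prohormones, fell by 0.44 (adjusted p = 0.00799), and Prcp fell by 0.39 (adjusted p = 0.0276). The prohormone convertase gene Pcsk1 differed by -0.07 (adjusted p = 0.613) and the receptor gene Trhr by -0.21 (adjusted p = 0.331).

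The Gq list for Gna14 (9 measured) had a median of 0.32 at day 8, with 4 higher and 0 lower. Plcb1, a phospholipase C-beta that Gq class subunits activate, rose by 2.42 ± 0.14 log2 units at day 4 (adjusted p = 6.5e-06) and 2.02 at day 8 (adjusted p = 8.85e-06), with levels of 7.16 to 7.66 with SKO and 4.74 to 5.51 without. Gnaq, which lies beside Gna14, rose by 0.61 at day 4 (adjusted p = 0.00501) and 0.72 ± 0.11 at day 8 (adjusted p = 0.00141). Plcb3 rose by 0.32 (adjusted p = 0.0359) and Rgs2, which speeds the shut-off of Gq subunits, by 0.41 (adjusted p = 0.029) at day 8. Gna11 differed by 0.01 (adjusted p = 0.923) and Gna15 by -0.49 ± 0.24 (adjusted p = 0.17).

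The list for Fetub, the cystatin superfamily with the proteases that fetuin-B inhibits and their relatives (9 measured), had a median of -0.14 at day 8, with 1 higher and 3 lower. Ahsg, which encodes fetuin-A and lies beside Fetub, rose by 1.18 ± 0.10 log2 units at day 4 (adjusted p = 7.12e-05) and 1.61 at day 8 (adjusted p = 6.27e-06). Its levels were 4.62 to 5.62 with SKO and 3.40 to 3.93 without. Kng1, the kininogen gene, fell by 0.60 at day 8 (adjusted p = 0.0173), Cst3, the cystatin C gene, fell by 0.47 (adjusted p = 0.00909), and the metalloprotease gene Mep1a fell by 0.35 (adjusted p = 0.0499).

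The list for Ceacam1 (12 measured) had a median of -0.13 at day 8, with 2 higher and 1 lower. Ceacam2, the closest relative and a neighbour in the genome, differed by -0.25 ± 0.17 log2 units at day 4 (adjusted p = 0.384) and -0.24 at day 8 (adjusted p = 0.33), and its levels overlapped, 3.61 to 4.12 with SKO and 3.63 to 4.38 without. Ceacam10 rose by 0.73 at day 8 (adjusted p = 0.00204) and Ceacam9 fell by 0.83 (adjusted p = 0.0133). Ptpn6, which encodes the phosphatase SHP-1 that binds the inhibitory motifs of Ceacam1, rose by 0.47 (adjusted p = 0.0253).

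The list for Enpp3 (7 measured) had the highest median, 0.77 at day 8, with 4 higher and 1 lower. Nt5e, the CD73 enzyme that makes adenosine from AMP, rose by 2.55 ± 0.12 log2 units at day 4 (adjusted p = 2.61e-06) and 3.28 at day 8 (adjusted p = 3.82e-07), from 5.50 to 6.16 without SKO to 8.02 to 9.48 with it. Entpd1, the CD39 enzyme that acts one step earlier on extracellular ATP and ADP, rose by 1.25 ± 0.17 at day 4 (adjusted p = 0.000931) and 1.66 at day 8 (adjusted p = 0.000114). Enpp4 rose by 0.77 (adjusted p = 0.00202) and Enpp5 by 0.91 (adjusted p = 0.000361) at day 8, and Alpl, a phosphatase that also releases adenosine, fell by 0.66 (adjusted p = 0.00335). Of the listed genes, Enpp1 and Enpp2 had no probe set for 1 gene alone. Nt5e and Entpd1 were thus called at day 4, the day on which Enpp3 itself differed by 0.37. In none of the 8 lists was any gene called in a cluster comparison.

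**Figure D4:**
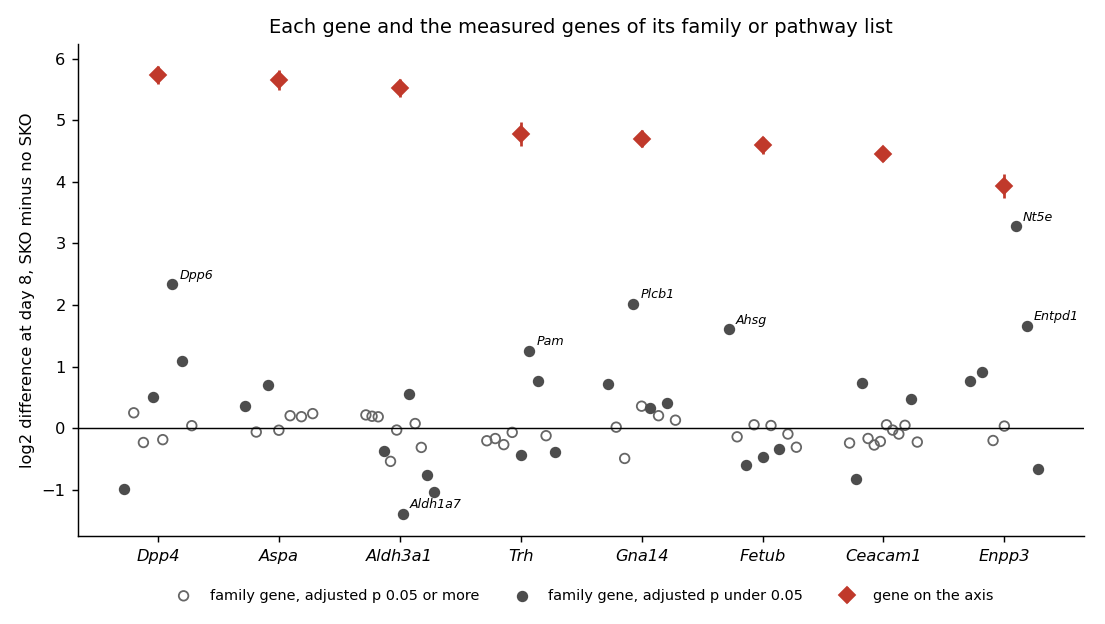
Log2 SKO difference at day 8 of each of the 8 genes (diamonds, with SE) and of the measured genes of its family or pathway list (circles, filled where the limma adjusted p was under 0.05). The diamonds lie between 3.94 and 5.73, above every list gene, of which Nt5e at 3.28 and Dpp6 at 2.34 are the highest.

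The nearest protein-coding genes on either side in the RefSeq order were read for each gene, a choice made after the values were seen. Beside Dpp4 on chromosome 2, Slc4a10 differed by -0.18 log2 units at day 8 and Gcg, the glucagon gene, by -0.14. Beside Aspa on chromosome 11, Trpv3 differed by 0.49 and Spata22 by 0.28, and beside Aldh3a1 on the same chromosome Usp22 differed by -0.31. Beside Trh on chromosome 6, Rbsn differed by -0.14 and Prickle2 by 0.31, and beside Enpp3 on chromosome 10 Med23 differed by 0.43. The larger neighbour values were on chromosome 19, where Vps13a differed by 1.19 beside Gnaq and Gna14, and on chromosome 16, where Ahsg differed by 1.61 and Hrg, on the other side of Fetub, by -0.14. Beside Ceacam1 on chromosome 7, Cxcl17 differed by -0.09. In each case the neighbour difference was below that of the gene itself, which the selection had made large.

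The genes outside the 8 with the nearest profiles over the 12 arrays, again after each gene's mean was subtracted, recurred between genes. Cth, Crym (a thyroid hormone binding protein), Podxl (a sialomucin of podocytes and stem cells) and Tek (the angiopoietin receptor) filled the nearest places of Dpp4, Aspa, Aldh3a1, Gna14 and Ceacam1. The distance was 0.32 log2 units from Ceacam1 to Cth and 0.35 from Gna14 to Crym. It was 0.67 from Dpp4 to Cth, 0.78 from Aspa to Cth and 0.81 from Aldh3a1 to Crym, so the last 3 had no gene as close. Fetub was nearest to Ano1, at 0.29. Trh was nearest to the pluripotency marker Fbxo15, at 0.41, which differed by 2.28 log2 units at day 4 and 4.35 at day 8. Enpp3 was nearest to the epithelial adhesion gene Epcam (0.45), the peptide hormone gene Apela (0.48) and the protease inhibitor gene Spint2 (0.49), which differed by 1.01, 0.73 and 0.85 at day 4 and by 3.49, 2.96 and 2.78 at day 8. A profile over 12 arrays is dominated by SKO and day, and the distances are descriptions of these arrays.

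Markers of several cell types were read beside the 8 genes, since each gene is known from tissues other than fibroblasts. In bulk RNA, fewer cells of a type and less RNA per cell cannot be told apart. Fibroblast markers (14 measured) were called lower in 9 at day 4 and 11 at day 8, with 1 and 0 higher. Of all 19938 genes, 1874 were called lower at day 4 and 2525 at day 8. The mean level of the fibroblast markers was 8.73 to 8.97 with SKO and 9.56 to 10.05 without. Lum, a matrix proteoglycan gene, fell by 3.01 log2 units at day 8, and Postn fell by 2.64. The labelled cell type therefore showed its markers on all arrays, at a lower level with SKO.

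Epithelial markers (14 measured) were called higher in 5 at day 4 and 12 at day 8, with 0 lower, and their mean level was 4.86 to 6.40 with SKO and 4.52 to 4.68 without. Pluripotency markers (16 measured) were called higher in 3 at day 4 and 8 at day 8, with 0 lower, and their mean level was 4.24 to 6.48 with SKO and 4.08 to 4.29 without. Of all genes, 9.52% were called higher at day 4 and 13.4% at day 8. The pluripotency list had a median SKO difference of -0.16 at day 4, on which 7 of the 8 genes already differed by 2.99 log2 units or more, and 0.90 at day 8. Dppa5a differed by -0.51 at day 4, where 0 genes of the list were called lower. At day 8 it read 10.22 on the SKO array with cluster C, against 6.61 with blank virus and 6.82 with cluster B. Among the 8 genes, the widest gap between that array and both others was in Enpp3, at 9.15 against 8.55 and 8.40. The part of the fibroblast, epithelial and pluripotency shifts in the differences of the 8 genes was not tested.

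At most 1 gene per list was called higher at day 8 in 6 marker lists of tissues known for some of the 8 genes. Of all 19938 genes, 13.4% were called higher and 2525 genes were called lower. Counts of 0 or 1 called higher in lists of 6 to 12 genes are near the share called higher, and nothing is read from them. Among calls lower, the brush border (3 of 10) and peptidergic neuron lists (4 of 11) stood above the share of all genes. The source of these lower calls was not tested. The epithelial and corneal lists, which bear on Ceacam1 and Aldh3a1, had 12 and 3 called higher and are given separately. Hepatocyte markers (12 measured) had 1 called higher at day 8, Ahsg, which also stands in the Fetub list, and 0 lower, and their mean level was 3.82 to 3.97 with SKO and 3.84 to 4.00 without. Intestinal brush border markers (10) had 0 higher and 3 lower, with mean levels of 3.86 to 4.07 and 4.07 to 4.22. Kidney proximal tubule markers (6) had 1 higher and 0 lower, with mean levels of 4.03 to 4.32 and 3.98 to 4.18. Basophil and mast cell markers (10), which bear on Enpp3, had 1 higher, Kit by 0.55, and 0 lower, with mean levels of 3.67 to 3.89 and 3.74 to 3.93. Oligodendrocyte markers (8), which bear on Aspa, had 1 higher and 1 lower, with mean levels of 4.64 to 4.84 and 4.69 to 4.98. Peptidergic neuron markers (11), which bear on Trh, had 0 higher and 4 lower, with mean levels of 4.55 to 4.72 and 4.52 to 4.90. These ranges pool both days, and with and without SKO they overlapped or touched in each of these 6 lists. At day 8 alone, the mean levels with SKO lay below those without in the brush border, kidney, oligodendrocyte and neuron lists. The margin was narrow in the kidney list, 4.12 against 4.13. At day 8 the hepatocyte and basophil lists overlapped. How often other lists separate was not computed, and nothing is read from this.

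Corneal and keratinocyte markers (9), which bear on Aldh3a1, had 3 called higher at day 8 and 2 lower, with a mean level of 4.62 to 5.11 with SKO and 4.33 to 4.70 without. Krt14 rose by 2.42 log2 units and Sfn by 1.63, while 2 other genes of the list were called lower. Endothelial markers (8) had 1 higher, Tek, which rose by 3.58, and 1 lower, Erg, which fell by 1.07, with mean levels of 4.43 to 4.67 and 4.08 to 4.33. Leukocyte markers (9) had 2 higher and 5 lower, with mean levels of 4.67 to 4.88 and 4.50 to 4.99. Of all 19938 genes, 2674 were called higher and 2525 lower at day 8. In each of these lists the called genes went both ways, so no shift of a cell type is read from the mean levels. The part of these marker differences in the results for the 8 genes was not tested.

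**Figure D5:**
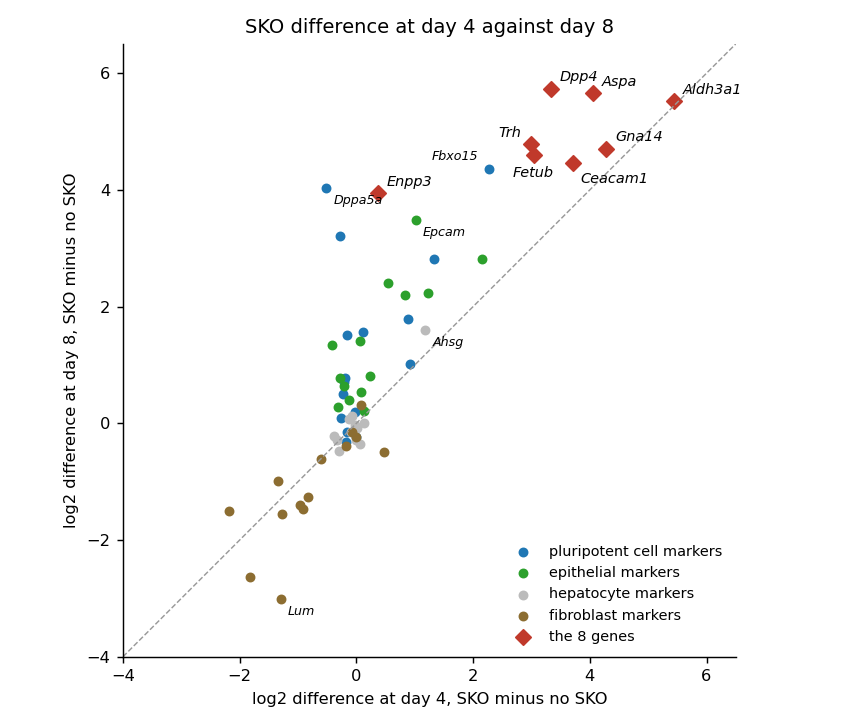
Log2 SKO difference at day 4 (horizontal) against day 8 (vertical) for the 8 genes (diamonds) and for marker genes of pluripotent cells, fibroblasts, epithelial cells and hepatocytes (circles). Of the 8 genes, 7 lie between 2.99 and 5.44 on the day 4 axis, while Enpp3 lies at 0.37, on that axis among the epithelial and pluripotency markers. On the day 8 axis Enpp3 lies at 3.94, above every epithelial marker and below the pluripotency markers Fbxo15 and Dppa5a.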

How the data were processed

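Values were used as deposited, on a log2 scale (0.916 to 14.03, array medians of 4.98 to 5.07), for 28853 probe sets on 12 Affymetrix arrays. Per the submitters' processing notes, RMA and Partek were used, with no versions given. RMA gives arrays a common distribution and so hides any shift in common. The genome build of the authors' annotation is not given in the sources used here. Probe sets annotated to 1 gene were kept, and the one with the highest mean per gene, which gave 19938 genes. One limma 3.58.1 fit (R 4.3.3) over all arrays had terms for SKO, day, virus, SKO with day and SKO with virus, which left 4 residual degrees of freedom. Adjusted p-values are Benjamini-Hochberg over all genes, separately in each of 12 comparisons. Nothing says that arrays came from separate cultures, so p-values measure only the spread between these arrays. Members and lists were chosen with earlier results of these data known, and motifs and genome neighbours after values were seen. The text names the 8 genes, the 3 nearest profiles of each, any gene of a family list and up to 2 highest and 2 lowest of each marker list. Genes beside the 8 in rank at day 8 were named after their values were seen. Intervals are 95%. Python 3.11.15 was used for tables and figures.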

Additional observations from a re-analysis of the deposited data

Results flagged for a closer look

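In 6 of the 8 genes, the change from day 4 to day 8 with SKO differed from that without SKO in limma's test of the difference. At the same threshold, 1.97% of all genes were called higher. The change with SKO minus that without was 3.57 log2 units in Enpp3, 2.40 in Dpp4, 1.80 in Trh, 1.60 in Aspa, 1.55 in Fetub and 0.75 in Ceacam1. In Dpp4, Fetub, Ceacam1 and Enpp3, the 3 pairs with SKO were all higher at day 8 and the 3 pairs without SKO all lower. In Trh and Aspa, 2 of 3 pairs without SKO were higher. How many of all genes have such pairs was not computed. The call in Ceacam1 was lost when any 1 of the 12 arrays was left out (adjusted p from 0.067 to 0.164) and with equal array medians (adjusted p = 0.0547). The genes were selected on arrays that enter these values, so the differences are no independent evidence.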

How the results depend on the processing

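Other normalizations (quantile, equal medians), other uses of probe sets (their mean, each on its own, dim ones dropped), other fits (robust with a variance trend, fewer terms, 1 arm alone) and leaving out each array in turn were tried. No value of the 8 genes that had been called changed sign under any of them. All 8 genes were called at day 8 under every alternative fitted to it, and 7 or 8 at day 4, where Enpp3 passed only without the SKO cluster C array of day 4 (0.67, adjusted p = 0.0462). The cluster comparisons had 0 calls under every alternative. The count called from day 4 to day 8 without SKO was 2 and moved most: 0 to 2 when 1 array was left out, and 3 (with Dpp4) under quantile normalization, equal medians, the dim filter and the variance trend. Counts called ran from 5 to 7 for the day change with SKO and from 5 to 6 for its difference between arms, where Ceacam1 also missed the threshold with equal medians (0.73, adjusted p = 0.0547). The virus terms of the fit already match arrays of the same virus; the labels carry no replicate numbers, so no further block was fitted. With 1 array per condition, an effect of a cluster at 1 day cannot be told from spread, and values near the lower quartile of an array (3.48 to 3.68) limit what low levels can show.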
